A study of Danio rerio with 2 samples.

Results

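Collagens, laminins, nidogens, fibronectins, the proteoglycan genes hspg2 and agrn, and sparc build or organise the extracellular matrix around vessels and connective tissue. Their transcripts were examined in kdrl:GFP+ cells sorted from zebrafish embryos (Danio rerio). Members were chosen by gene name: 77 listed genes carried such a name, and 61 of them had a mean of at least 0.5 FPKM over the libraries, among 21699 genes in all. FPKM counts fragments per kilobase of gene and per fixed number of assigned fragments, so levels can be compared between genes. Of the 61, 22 were placed in a basement membrane class and 13 among the fibrillar collagens, with 23 other collagens, 2 fn1 genes and sparc.

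The study has 2 libraries, 1 per group, both from crosses of fish that were heterozygous for tsu3994, an allele of gbf1, and carried the Tg(kdrl:GFP) transgene, collected at 44 hours post fertilization. The sibling library came from embryos of normal morphology and the mutant library from embryos of mutant morphology. The labels give neither the genotype of the siblings nor the number of embryos pooled. With 1 library per group there is no replicate, so each difference compares these libraries and has no test. Count ratios are mutant over sibling, per library total, with a 95% interval that covers counting error only.

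Basement membranes are thin sheets of matrix beneath endothelium and epithelium. Laminins, trimers of an alpha, a beta and a gamma chain, form a first network at the cell surface, type IV collagen forms another, and nidogens and perlecan link them. Fibrillar collagens assemble instead into the ropes of connective tissue, cartilage and the notochord sheath. Fibronectin is laid down early around growing vessels and is bound by integrins.

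The sibling library held 5657525 and the mutant library 6169373 expected counts. Red cell genes were abundant: the 10 erythroid markers of at least 0.5 FPKM made up 19.3% of sibling counts and 14.8% of mutant counts. Of the 14 entries on that list 10 were matched by name, and no beta globin gene was among the markers. These shares leave out any beta globin transcripts. All 17 endothelial markers had a count ratio with an interval above 1 (100%, against 34.0% of all genes). Their levels summed to 77.7 FPKM for siblings and 289 FPKM for mutants. The sums of the other marker lists, in the same order, were 203 and 291 FPKM for fibroblast and mural cells, 110 and 132 for notochord and cartilage, 1340 and 873 for epidermis, and 973 and 271 for skeletal muscle. In these bulk libraries fewer cells of a type and less RNA per cell cannot be told apart, and the part of cell composition in the results below was not tested.

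By level, the matrix transcripts of both libraries were led by sparc and by type I and type II collagens. sparc, which encodes a collagen-binding matrix glycoprotein, stood first in both, with 108 FPKM in siblings and 138 FPKM in mutants. col1a1a was second, at 95.1 and 104 FPKM. Fibrillar collagens held 44.3% of the summed FPKM of the 61 genes in siblings and 41.0% in mutants, and basement membrane genes 20.4% and 23.9%. The first basement membrane gene in the order was col4a5, at rank 8 of the sibling library, and nid2 reached the highest level of that class in the mutant library.

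**Figure D1:**
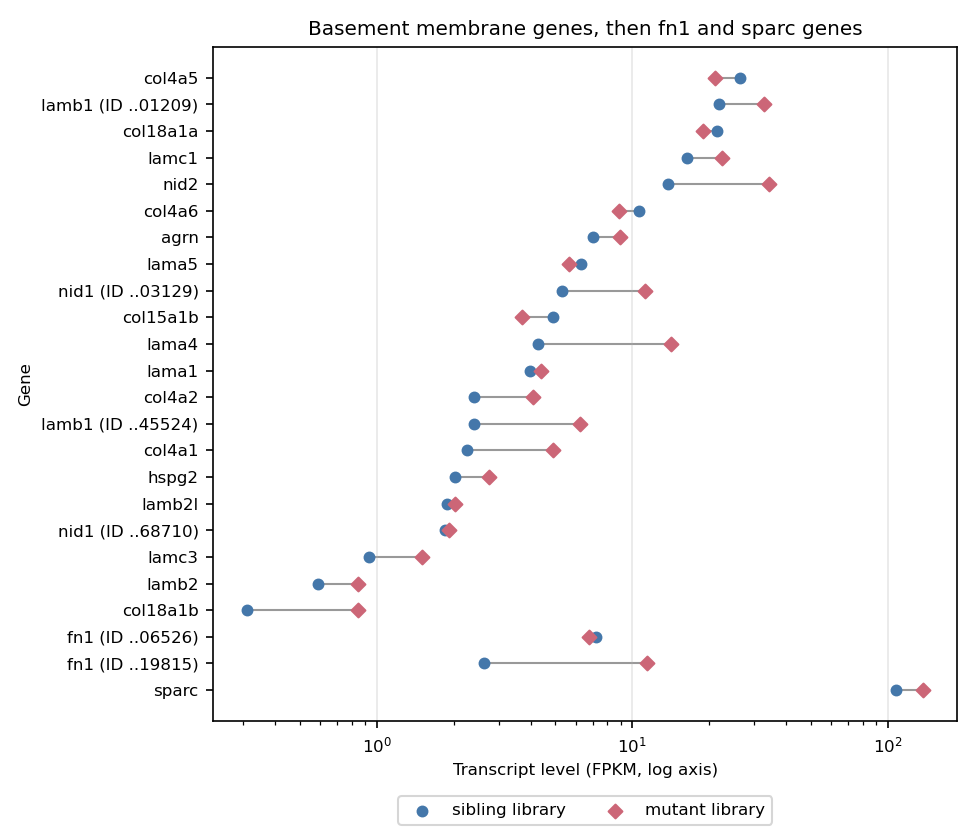
Transcript level in FPKM (log axis) of the basement membrane genes described here, the 2 fn1 genes and sparc, each with its sibling (circle) and mutant (diamond) value joined by a line. The widest gaps among genes above 2 FPKM in the sibling library are those of lama4 and of the fn1 gene ENSDARG00000019815, with nid2, a lamb1 gene, col4a1 and a nid1 gene next.

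Of the 22 basement membrane genes, 3 were at least 2-fold higher in the mutant library by the log2 fold of FPKM + 1, and none was at least 2-fold lower. These were lama4, nid2 and a lamb1 gene. Over all 17023 genes at the same level limit, 7.08% were that much higher and 1.72% that much lower. Over all 61 matrix genes, 5 (8.20%) were higher and none was lower, a share near that of all genes, and the remaining ones were a fn1 gene and col6a1. The split of 5 higher and 0 lower became 3 and 4 when centred on the median of all genes, 2 and 4 under TMM or median-of-ratios scaling, and 4 and 1 without the 10 most abundant genes of the libraries. The 4 lower ones were col7a1, col17a1a, col14a1b and col5a3b. The shares of all genes past the limits under these scalings were not computed. Rescaling moves every gene, so these counts cannot be set against 7.08% and 1.72%. Of the 5 higher ones, only the fn1 gene and lama4 stayed past the limit under every scaling tried. By the counting interval of the count ratio, 11 of the 22 basement membrane genes lay above 1 and 4 below 1, against 34.0% and 6.97% of all genes. Such intervals are narrower for deeply counted genes. The basement membrane genes had a median of 134 expected counts in the sibling library against 48.0 for all genes.

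The whole library was shifted, with a median log2 fold of 0.23 and a median count ratio of 1.22 over all genes. Read against that ratio, 8 basement membrane genes had an interval above the median gene and 5 had an interval below it, where all genes gave 16.9% and 17.6%. The class median was a log2 fold of 0.32, and 12 of 22 members were above the median of all genes. The class therefore held members well above, near and below the typical gene. The endothelial marker list, at a median of 1.42, stood higher than the class.

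Among the laminin alpha chains, lama4 encodes the chain of the laminins typical of endothelial basement membrane. Its level was 4.26 FPKM in siblings and 14.2 FPKM in mutants (155 and 563 expected counts, ratio 3.33, 2.78 to 4.01). This was the highest log2 fold of the class, 1.53, and it was at least 1.27 under every scaling tried. lama5, the alpha chain of many epithelial and mature vascular basement membranes, stood at 6.32 and 5.64 FPKM (ratio 0.89, 0.77 to 1.02). lama1, a chain of early embryonic basement membranes, was at 3.97 and 4.41 FPKM (ratio 1.11, 0.92 to 1.33). The intervals of lama5 and lama1 held 1. That of lama5 lay below the median ratio of all genes, 1.22, and that of lama1 held it. Within a library, the level of lama4 was 0.67 times that of lama5 in siblings and 2.52 times in mutants, so the order of these chains differed between the libraries.

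The beta chains were represented mainly by 2 genes named lamb1, a partner chain in many laminins. The abundant lamb1 gene (ENSDARG00000101209) stood at 21.8 and 32.8 FPKM (746 and 1206 expected counts, ratio 1.48, 1.35 to 1.63). The less abundant lamb1 gene (ENSDARG00000045524) stood at 2.40 and 6.22 FPKM (79 and 222 counts, ratio 2.58, 1.98 to 3.38). Both were higher in the mutant library, the less abundant gene by more. lamb2, a beta chain of kidney, nerve-muscle and vessel laminins, was at 0.59 and 0.84 FPKM and the related lamb2l at 1.88 and 2.02 FPKM. Both had intervals that held 1.

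Of the gamma chains, lamc1, the common gamma chain, was at 16.4 and 22.5 FPKM (590 and 878 counts, ratio 1.37, 1.23 to 1.52). Its interval lay just above the median ratio of all genes. lamc3 was at 0.93 and 1.5 FPKM (ratio 1.60, 0.97 to 2.67). Summed over chains, laminin alpha genes were at 14.6 and 24.3 FPKM, beta genes at 26.7 and 41.9 and gamma genes at 19.8 and 25.9. The alpha sum was below the gamma sum in both libraries. The median log2 fold of the 10 laminin genes was 0.29, close to the 0.23 of all genes.

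Type IV collagen split by chain pair. col4a1 and col4a2 encode the chains found in nearly all basement membranes, those of vessels included. col4a1 was at 2.25 and 4.90 FPKM (103 and 256 counts, ratio 2.28, 1.81 to 2.89) and col4a2 at 2.41 and 4.10 FPKM (81 and 150 counts, ratio 1.70, 1.29 to 2.25). Both were higher in the mutant library. col4a5 and col4a6, which encode chains with a more restricted distribution in mammals, were the more abundant pair and went the other way. col4a5 stood at 26.4 and 21.1 FPKM (976 and 847 counts, ratio 0.80, 0.72 to 0.87), and col4a6 at 10.7 and 8.91 FPKM (508 and 461 counts, ratio 0.83, 0.73 to 0.95). The intervals of col4a5 and col4a6 lay below 1, and the direction of each of the 4 genes was the same under every scaling. The summed level of col4a1 and col4a2 was 0.13 times that of col4a5 and col4a6 in the sibling library and 0.30 times in the mutant library. The type IV median of 0.17 averages these opposite pairs and turned to -0.07 under median-of-ratios scaling.

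In the RefSeq gene order of the assembly GRCz12tu, used here for names and neighbours only, col4a1 lies next to col4a2, col4a6 next to col4a5 and col4a4 next to col4a3 among protein-coding genes. Each of these pairs had ratios on the same side of 1. The median ratio of all genes was itself 1.22. The share of all neighbouring pairs on the same side was not computed, so this says nothing particular to type IV. The pair col4a4 and col4a3 was below the level limit: col4a3 had 2 and 18 counts and col4a4 had 19 and 32. The interval of col4a4 held 1 (ratio 1.54, 0.85 to 2.88). Outside type IV, the intervals of col9a2, lamb2, lamb2l and lamb4 all held 1, so on which side of 1 they lie is uncertain. Both col9a2 and its neighbour col16a1 were below 1 (0.91 and 0.78), and both lamb2 and lamb2l above 1 (1.40 and 1.04). The gene next to lamb1a, lamb4, had a ratio of 0.46 (0.12 to 1.47), while both lamb1 genes were above 1.

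The nidogens, which bind both laminin and type IV collagen, had a median log2 fold of 0.95 over 3 genes. nid2 was at 13.8 and 34.3 FPKM (195 and 571 counts, ratio 2.69, 2.28 to 3.18). A nid1 gene (ENSDARG00000103129) was at 5.32 and 11.2 FPKM (135 and 308 counts, ratio 2.09, 1.70 to 2.58). The other nid1 gene (ENSDARG00000068710) was at 1.84 and 1.92 FPKM (ratio 1.03, 0.66 to 1.62). The nidogen sum was 21 FPKM in siblings and 47.4 FPKM in mutants, and nid2 held most of it in both.

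The heparan sulfate proteoglycans differed less. hspg2, which encodes perlecan, was at 2.02 and 2.76 FPKM (ratio 1.38, 1.104 to 1.74). agrn, which encodes agrin, the organiser of acetylcholine receptors at the neuromuscular junction, was at 6.99 and 8.96 FPKM (ratio 1.25, 1.08 to 1.46). Both intervals held the median ratio of all genes, 1.22.

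The multiplexins are collagens of the basement membrane zone whose C-terminal fragments, endostatin in the case of type XVIII, are known to restrain angiogenesis. col18a1a was at 21.5 and 19 FPKM (699 and 671 counts, ratio 0.88, 0.79 to 0.98). col15a1b was at 4.88 and 3.70 FPKM (ratio 0.76, 0.58 to 0.98). Both were slightly lower in the mutant library. col18a1b was rare, at 0.31 and 0.84 FPKM, with 6 and 18 counts (ratio 2.75, 1.05 to 8.47).

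Beside the basement membrane genes stand the 17 endothelial markers, all with an interval above 1 (100%, against 34.0% of all genes). Of 17 fibroblast and mural markers, 9 were at least 2-fold higher (52.9%, against 7.08% of all genes) and none at least 2-fold lower. By counting intervals 10 of these lay above 1 (58.8%, against 34.0%) and 2 below 1 (11.8%, against 6.97%). The log2 fold was at or below 0 for 5 of the 17. In the endothelial list kdrl was at 6.38 and 21.3 FPKM and no marker had a value of 0 in either library. In the fibroblast and mural list pdgfra was at 2.56 and 12.3 FPKM and dcn at 7.45 and 6.86. An acta2 gene had a value of 0 in the sibling library, where unlisted genes were set to 0. The part of either cell type in the higher lama4, nid2, lamb1, nid1 and col4a1 values, and in those of fn1, col5a1, col11a1b, type VI collagens and itga5 below, was not tested.

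**Figure D2:**
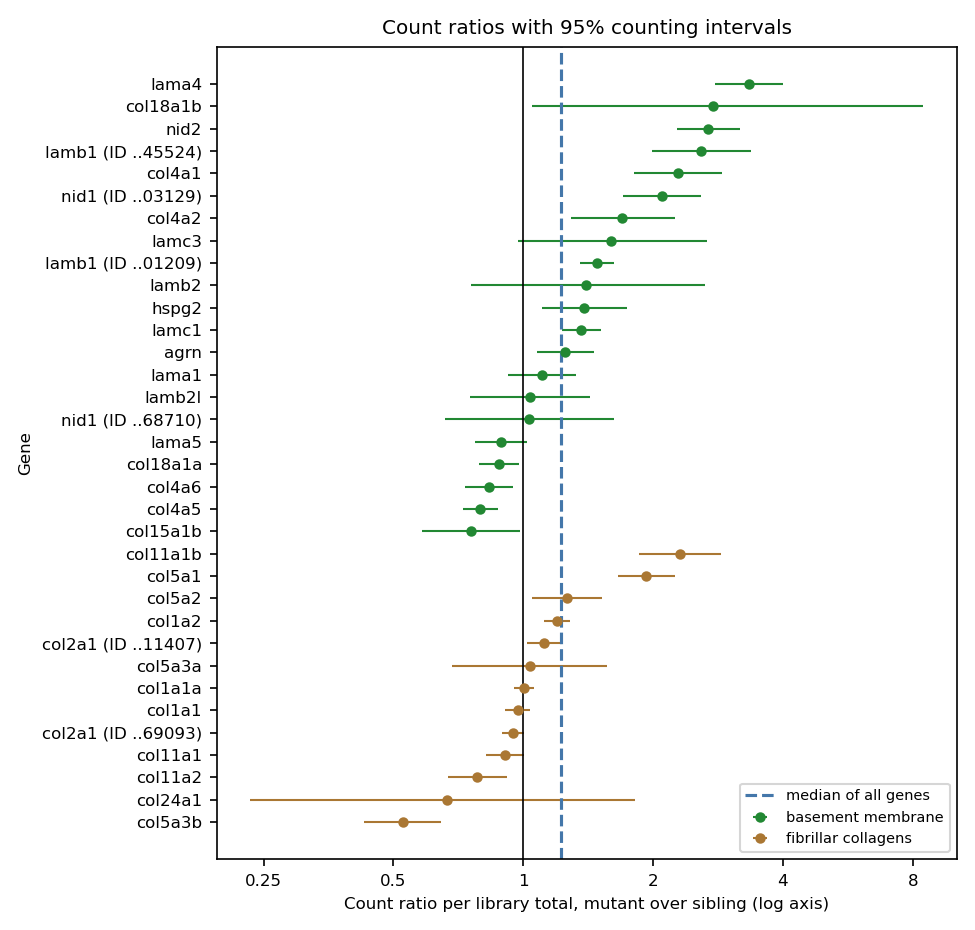
Count ratio per library total, mutant over sibling (log axis), with its 95% counting interval for the basement membrane genes described here and the 13 fibrillar collagen genes, each class sorted by ratio; the solid line is 1 and the dashed line the median ratio of all genes, 1.22. Basement membrane genes run from col15a1b at 0.76 to lama4 at 3.33, and fibrillar genes from col5a3b at 0.53 to col11a1b at 2.30.

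The 2 genes named fn1, which encode fibronectin, differed from each other. The gene ENSDARG00000019815 stood at 2.62 FPKM in siblings and 11.4 FPKM in mutants (127 and 613 counts, ratio 4.43, 3.65 to 5.40). This log2 fold, 1.78, was the highest of all 61 genes, and it ranged from 1.51 to 2.14 over the scalings and units. The gene ENSDARG00000006526 was at 7.22 and 6.78 FPKM (215 and 245 counts, ratio 1.04, 0.87 to 1.26). The level of the first gene was 0.36 times that of the second in the sibling library and 1.68 times in the mutant library, so their order differed. sparc had 795 and 1095 counts (ratio 1.26, 1.15 to 1.39), close to the median ratio of all genes.

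Most fibrillar collagens were close to equal in the libraries. By the log2 fold of FPKM + 1 as deposited, none of the 13 was at least 2-fold higher or lower. By counts and in TPM col11a1b was more than 2-fold higher, and col5a3b passed the lower limit when centred (-1.08), under TMM (-1.06) and under median of ratios (-1.07). The median log2 fold was 0.03, below the 0.23 of all genes. By counting intervals 5 lay above 1 (38.5%, against 34.0% of all genes) and 2 below 1 (15.4%, against 6.97%). Set against the median ratio of all genes, 2 lay above (15.4%, against 16.9%) and 6 below (46.2%, against 17.6%). The sign of the class median depended on the scaling, from 0.11 in TPM to -0.21 when centred on all genes, so no direction is given for the class.

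Type I collagen, the main fibrillar collagen of skin, bone and connective tissue, was the most abundant. col1a1a had 2674 and 2922 counts (ratio 1.002, 0.95 to 1.06), and the col1a1 gene without a letter was at 51.5 and 50.1 FPKM (ratio 0.97, 0.91 to 1.04). col1a2 was at 49.0 and 59.1 FPKM (ratio 1.198, 1.12 to 1.28). The ratios of the 2 alpha-1 genes were therefore alike, though their levels differed. Both intervals lay below the median ratio of all genes, 1.22, and only col1a2 of the 3 had an interval above 1.

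Type II collagen, the collagen of cartilage and of the notochord sheath, was nearly equal. A col2a1 gene (ENSDARG00000069093) stood at 65.4 and 62.2 FPKM (ratio 0.95, 0.89 to 1.005). The other col2a1 gene (ENSDARG00000011407) was at 28.7 and 31.8 FPKM (ratio 1.12, 1.02 to 1.23). In the notochord and cartilage marker list, 1 of 13 genes passed the 2-fold limit upwards (7.69%, against 7.08% of all genes). None passed it downwards, against 1.72% of all genes. By counting intervals 3 of the 13 lay above 1 (23.1%, against 34.0%) and 3 below 1 (23.1%, against 6.97%). Set against the median ratio of all genes, 3 lay above (23.1%, against 16.9%) and 5 below (38.5%, against 17.6%). The median log2 fold of this list was -0.08, beside 0.23 for all genes. With unlisted genes set to 0, matn1 had a value of 0 in the sibling and ucmaa in the mutant library. tbxta was at 1.02 and 1.08 FPKM.

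The largest fibrillar differences were in types V and XI, which nucleate fibrils of types I and II and set their diameter. col11a1b was at 2.58 and 5.94 FPKM (119 and 299 counts, ratio 2.30, 1.86 to 2.87), and col5a1 at 4.78 and 9.27 FPKM (251 and 528 counts, ratio 1.93, 1.66 to 2.25). col5a3b was lower, at 8.72 and 4.42 FPKM (265 and 152 counts, ratio 0.53, 0.43 to 0.64). These 3 genes had log2 folds of 0.95, 0.83 and -0.84, under the 2-fold limit.

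The remaining type V and XI genes lay between. col11a1 was at 20.4 and 18.9 FPKM (ratio 0.91, 0.82 to 1.003) and col11a2 at 9.71 and 7.54 FPKM (ratio 0.78, 0.67 to 0.92). col5a2 was at 6.66 and 8.43 FPKM (ratio 1.26, 1.05 to 1.52) and col5a3a at 1.19 and 1.23 FPKM (ratio 1.03, 0.69 to 1.57). Of these only col11a2 had an interval below 1 and only col5a2 one above 1. The interval of col5a2 held the median ratio of all genes, 1.22, and those of col11a1 and col11a2 lay below it. col24a1, a minor fibrillar collagen, had 11 and 8 counts (ratio 0.67, 0.23 to 1.82).

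Set side by side, the median log2 fold of basement membrane genes exceeded that of fibrillar genes by 0.29. The difference of the medians was above 0 in every alternative tried. Several of these rescale whole libraries, which moves both medians by similar amounts and could hardly change the sign. The difference was smallest, at 0.11, when genes below the level limit were kept. The summed FPKM of basement membrane genes was 159 for siblings and 214 for mutants, a ratio of 1.34. For fibrillar genes the sums were 347 and 365, a ratio of 1.05. Expressed per fibrillar FPKM, the basement membrane sum was 0.46 in siblings and 0.58 in mutants. The classes overlapped widely, from -0.32 to 1.53 in the basement membrane and from -0.84 to 0.95 in the fibrillar class, and the difference has no replicate check.

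**Figure D3:**
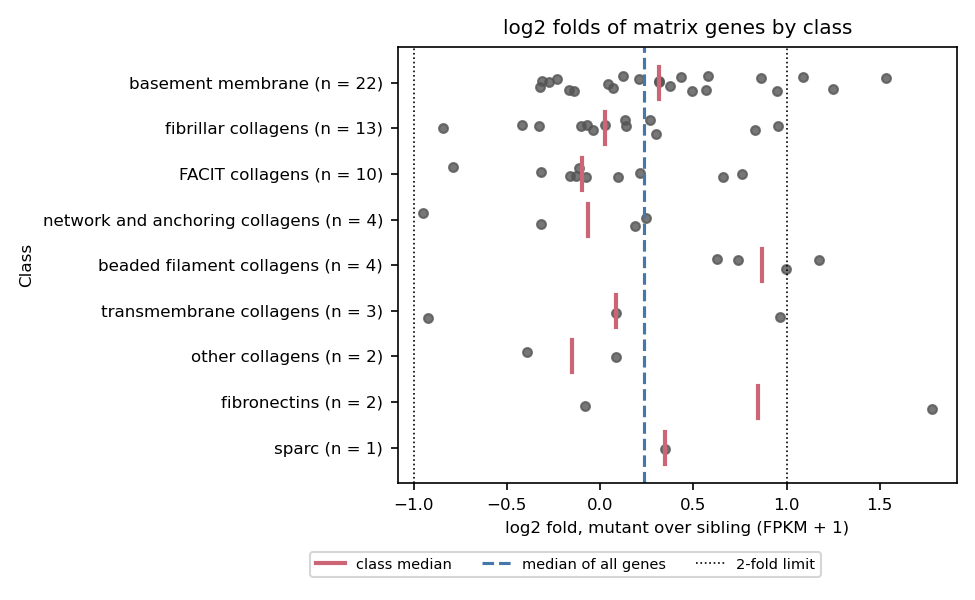
log2 fold of FPKM + 1, mutant over sibling, for each of the 61 genes by class, with the class median (red bar), the median of all genes (dashed line, 0.23) and the 2-fold limits (dotted lines). The basement membrane median lies at 0.32, the fibrillar median at 0.03 and the beaded filament median at 0.87.

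Beaded filament collagens, of type VI, form microfibrils that connect cells and basement membranes to the surrounding matrix. All 4 genes were higher in the mutant library from low levels, with a median log2 fold of 0.87, and they were above 0 under every scaling. col6a1 was at 1.44 and 4.51 FPKM (47.5 and 128 counts, ratio 2.50, 1.78 to 3.57), and col6a2 at 1.08 and 2.47 FPKM (37.8 and 93.4 counts, ratio 2.24, 1.52 to 3.37). The listed length of col6a1 was 5637 for siblings and 4476.74 for mutants. Its FPKM fold of 3.13 was therefore above its count ratio of 2.50. col6a4a was at 0.71 and 1.64 FPKM (36.0 and 90.8 counts, ratio 2.32, 1.56 to 3.51). The value of col6a3 is uncertain. It was at 0.42 and 1.83 FPKM, but its listed length fell by 66.4% from the sibling to the mutant table, and its counts of 23 and 36.6 gave a ratio of 1.48 (0.85 to 2.60).

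FACIT collagens lie on the surface of fibrils, type IX on type II and types XII and XIV on type I. None of the 10 was past 2-fold by the log2 fold of FPKM + 1 as deposited, though a col12a1 gene and col14a1b were by counts, and col14a1b also under 3 scalings (centred, TMM and median of ratios). The median log2 fold was -0.10, which turned to 0.04 in TPM. The most abundant was col9a1b, at 41.4 and 33.0 FPKM (674 and 584 counts, ratio 0.79, 0.71 to 0.89). Of the other type IX genes, col9a2 was at 24.1 and 22.8 FPKM and col9a3 at 22.03 and 20.1. The col9a1 gene without a letter was rare and went the other way, at 1.77 and 3.37 FPKM (28 and 58 counts, ratio 1.90, 1.19 to 3.10). col9a2 and col9a3 had intervals that held 1 and lay below the median ratio of all genes, 1.22. A col12a1 gene (ENSDARG00000078322) was higher, at 14.3 and 24.8 FPKM (181 and 424 counts, ratio 2.15, 1.80 to 2.57), with a listed length 23.6% greater in the mutant table. col14a1b was lower, at 10.7 and 5.74 FPKM (143 and 75.2 counts, ratio 0.48, 0.36 to 0.64), and has the lowest ratio of the FACIT class.

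Collagens of the epidermal attachment were lower or near equal. col17a1a, a transmembrane collagen of hemidesmosomes, was at 1.66 and 0.40 FPKM with 46 and 12 counts (ratio 0.24, 0.12 to 0.46), the lowest ratio of the 61 genes. Its paralog col17a1b, below the level limit, had 17 and 5 counts (ratio 0.27, 0.08 to 0.76). col7a1, of the anchoring fibrils, was at 2.38 and 0.75 FPKM, but its listed length was 139.6% greater in the mutant table and its counts of 61 and 50 gave a ratio of 0.75 (0.51 to 1.11). A col7a1l gene (ENSDARG00000069692) was at 1.75 and 1.21 FPKM with 53 and 30 counts (ratio 0.52, 0.32 to 0.83), and the other col7a1l gene had 5 and 7 counts. The listed length of the col7a1l gene ENSDARG00000069692 was 5167 for siblings and 3904.05 for mutants. Its FPKM fold of 0.69 was therefore above its count ratio of 0.52. Beside these genes stand the 13 epidermal markers, of which 10 had an interval below 1 (76.9%, against 6.97% of all genes), with krt5 at 49.6 and 25.3 FPKM and none at a value of 0. Their part in these values was not tested.

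The other transmembrane collagens were col23a1a, at 2.53 and 2.75 FPKM (ratio 1.47, 1.06 to 2.05), and col23a1b, at 0.71 and 2.34 FPKM with 6 and 19 counts (ratio 2.90, 1.12 to 8.88). col8a1a, of a short-chain network collagen, was at 4.21 and 4.93 FPKM (ratio 1.17, 0.81 to 1.69). col28a2a was at 6.75 and 4.91 FPKM (ratio 0.78, 0.63 to 0.98) and col28a1a at 0.78 and 0.89 FPKM. Only col23a1a and col23a1b of these had an interval above 1, and both intervals held the median ratio of all genes, 1.22. The listed length of col23a1a was 34.9% greater in the mutant table, and that of col23a1b 10.9% smaller.

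**Figure D4:**
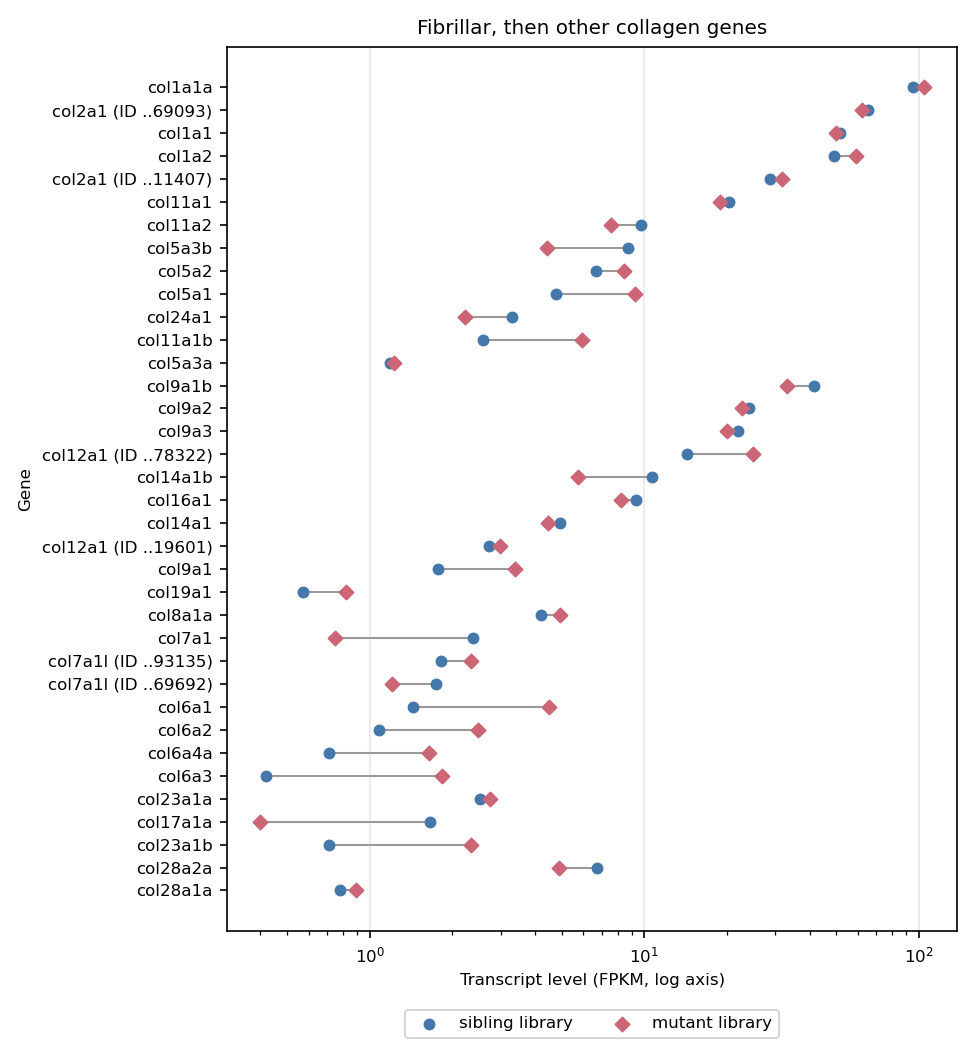
Transcript level in FPKM (log axis) of the fibrillar collagens and the 23 collagens of other classes, each with its sibling (circle) and mutant (diamond) value joined by a line. Type I, II and IX genes above 20 FPKM show short lines, and the 4 type VI genes all lie to the right in the mutant library.

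Zebrafish carry duplicate copies of many matrix genes, and the copies often differed. There were 13 pairs of members with the same name or with names that differ in a last letter a or b. In 10 of them the ratio of the count ratios had a counting interval that did not hold 1. The same share over other gene pairs was not computed, so the count says nothing particular to matrix genes. The count ratio of the copy of lower mean FPKM over that of its partner was 2.54 (1.999 to 3.24) for col11a1, 2.39 (1.47 to 3.95) for col9a1, 1.96 (1.23 to 3.13) for col5a3 and 1.74 (1.32 to 2.31) for lamb1. It was 0.24 (0.18 to 0.31) for fn1, whose copies had nearly the same mean, and 0.49 (0.30 to 0.81) for nid1. The mean includes the mutant value, so nothing is read from which copy is the lower. The col1a1 pair did not differ beyond counting error, at 0.97 (0.89 to 1.05). Reads that match both copies are divided by estimation, so values of near-identical copies are uncertain.

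**Figure D5:**
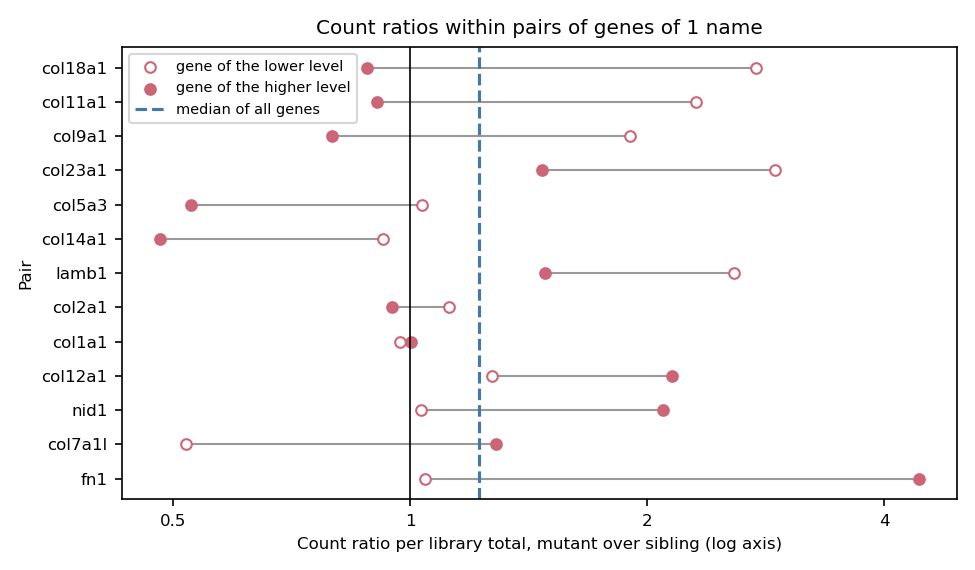
Count ratio per library total, mutant over sibling (log axis), of the 2 genes of each of 13 pairs, the copy of lower mean FPKM as an open circle and that of higher mean FPKM as a filled circle; the dashed line is the median of all genes. The copies of col1a1 lie nearly on each other, while those of fn1 lie at 1.04 and 4.43.

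Listed gene length differed by over 10% between the tables for 11 of the 61 genes (18.03%, against 17.5% of all genes). By counts alone, which do not use the length, 13 genes passed 2-fold upwards and 2 downwards. All 5 genes past 2-fold by FPKM were among them. The share of all genes past 2-fold by counts was not computed, and the 7.08% and 1.72% given above are by FPKM + 1. By counts the median log2 fold of all genes was 0.29. Genes that passed by counts but not by FPKM + 1 include col4a1, the nid1 gene ENSDARG00000103129, col11a1b, col6a2 and col6a4a, most of them at low FPKM, where adding 1 shrinks the fold.

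Collagen chains are hydroxylated, folded and packed for export in the endoplasmic reticulum and then trimmed and cross-linked outside the cell. Of 33 such processing genes at the level limit, 6 passed the 2-fold limit upwards and none downwards, where 7.08% and 1.72% of all genes did. An interval above 1 was found for 26 of them (78.8%, against 34.0% of all genes), and an interval above the median ratio of all genes for 14 (42.4%, against 16.9%). Their median log2 fold was 0.54, beside 0.23 for all genes. The list was drawn up with earlier results of these data known, so these shares are a description only. The 6 were sec24d, a COPII subunit (7.02 and 33.7 FPKM), loxl2a, a lysyl oxidase (6.32 and 24.3), bmp1, a procollagen C-proteinase (3.40 and 10.5), a fkbp10 gene, a collagen prolyl isomerase (3.93 and 10.7), a p4ha1 gene, the catalytic subunit of prolyl 4-hydroxylase (6.77 and 16.7), and p4hb, its partner subunit (32.6 and 67.3). The collagen chaperone gene serpinh1, with 2 copies, was at 37.2 and 49.5 FPKM and at 9.78 and 14.04 FPKM.

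Of 25 receptor genes for these ligands, 5 passed the 2-fold limit upwards (20%, against 7.08% of all genes) and none downwards. Their median log2 fold was 0.22, beside 0.23 for all genes. This list, too, was drawn up with earlier results known. itga5, the alpha subunit of the main fibronectin receptor, was at 2.06 and 10.6 FPKM (ratio 4.71, 3.60 to 6.25). mcam, a laminin-binding adhesion molecule of vessels, was at 2.29 and 9.27 FPKM, itga9 at 0.34 and 2.17, itga8 at 0.51 and 2.12 and an itgb1 gene at 18.5 and 38.1. The values of itga9 rest on 7 and 48 counts (ratio 6.29, 2.83 to 16.5). The listed length of itga8 was 29.0% smaller in the mutant table, and its counts of 17 and 54 gave a ratio of 2.91 (1.66 to 5.36). Another itgb1 gene (ENSDARG00000053232) was lower, at 10.4 and 8.03 FPKM (ratio 0.74, 0.59 to 0.94).

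The 16 genes below the level limit comprised 7 of the basement membrane class, 2 fibrillar and 7 other collagens. The basement membrane ones were col4a3, col4a4, lama2, lama3, lamb3, lamb4 and nid2b, none above 0.60 FPKM in either library. lama3 and lamb3, chains of the epidermal anchoring laminin, had 1 and 3 and 3 and 2.70 counts. Just inside the limit were col18a1b, at a mean of 0.57 FPKM, and col19a1, at 0.69, and just outside were col4a4, at 0.47, and col27a1b, at 0.39. nid2b, col28a2b and a second col19a1 gene were listed in the sibling library alone, and col5a2b and col28a1b in the mutant library alone.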

How the data were processed

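Expected counts and FPKM values were deposited by the authors, 1 table per library, with a listed gene length. The submitters' processing notes name RSEM, Bowtie2, BWA, bcl2fastq 2.16 and the build GRCz10. Roles, annotation release and filters: not given in the sources used here. Expected counts, as deposited, are estimates that need not be whole and were rounded for intervals. The deposited FPKM values have no scaling between libraries. Unlisted genes were set to 0. Names came from a table of Ensembl IDs that named 19802 of 21699 genes and often lacks the paralog letter; symbols are in lower case.

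The log2 fold is log2((mutant FPKM + 1)/(sibling FPKM + 1)), with 1 and -1 as the 2-fold limits. Count ratios have exact conditional binomial 95% intervals, pair comparisons exact conditional odds ratios (scipy 1.17.1, pandas 2.3.3); TMM factors came from edgeR 4.0.16. Count folds used a prior of 0.5. The count ratio intervals and the 2-fold calls by counts were tested on simulated counts with counting error only. The FPKM folds, class medians, scalings and pair comparisons were not tested in this way.

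Members, classes and lists were chosen with earlier results of these data known. Named are the basement membrane, fibrillar, fn1 and sparc members, in other collagen classes those past 2-fold and the 4 of highest level, and up to 6 processing or receptor genes past 2-fold. Further genes named (other collagens, pairs, markers, serpinh1 and an itgb1 gene) were chosen after their values were seen. Alternatives covered scaling, unit, pseudocount, level limit, class definition and listed length. Of the members, 1 enters the class counts, sums and medians and is not reported here by name. No sequence is given.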

Additional observations from a re-analysis of the deposited data

How the results depend on the processing

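With 1 library per group leaving out a replicate was not an option. No paired analysis was possible because each group has a single library. No member past 2-fold changed sign under any alternative. These 5 had log2 folds from 1.09 to 1.78, far above 0, so the alternatives could hardly have changed a sign. Of 568 member values under alternatives, 478 lay within the member's counting interval and 90 did not. The 478 include the alternatives of level limit and listed length, which leave a member's own value unchanged and so could not fall outside.

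The basement membrane median log2 fold, 0.32, was 0.083 when centred on all genes, 0.10 under TMM and under median of ratios, 0.44 in TPM, 0.46 by counts, 0.44 with a pseudocount of 0.1, 0.38 at a mean of at least 5 FPKM, 0.21 with no level limit, 0.18 without the 10 highest genes, and 0.37 without col15a1, col18a1, hspg2 and agrn. The fibrillar median, 0.03, was in the same order -0.21, -0.14, -0.15, 0.11, 0.0028, 0.044, 0.048, 0.10 and -0.067, the last without the 10 highest genes. Their difference, 0.29, was 0.25 under TMM and under median of ratios, 0.32 in TPM, 0.45 by counts, 0.39 with the pseudocount of 0.1, 0.33 at 5 FPKM, 0.11 with no limit, 0.24 without the 10 highest genes and 0.35 under the narrower class. Centring leaves the difference at 0.29 by construction. The other scalings also move both medians by similar amounts, so they could hardly change the sign of the difference. In an alternative chosen after seeing the data, the difference was also 0.29 without the members whose listed length differs by over 10%.

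The number of members at least 2-fold higher, 5, was 3 when centred or at 5 FPKM, 2 under TMM and under median of ratios, 9 in TPM, and 13 by counts and with the pseudocount of 0.1. It was 4 without the 10 highest genes, and 4 without the members whose listed length differs by over 10%. The number at least 2-fold lower, 0, was 4 when centred, under TMM and under median of ratios, 2 by counts and with the pseudocount of 0.1, and 1 without the 10 highest genes. The shares of all genes past the limits under these alternatives were not computed. Scalings that bring the median of all genes from 0.23 to near 0 move all folds down by construction, and a pseudocount of 0.1 or counts widen the folds of low genes. Genes under about 20 counts, among them col18a1b, col23a1b and col24a1, have wide counting intervals.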
